A study of Homo sapiens with 6 samples.

Results

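Polycomb repressive complex 2 (PRC2) was examined through the 10 genes that encode its main subunits, which are EZH1, EZH2, EED, SUZ12, RBBP4, RBBP7, JARID2, AEBP2, MTF2 and PHF19. The genes were found by their symbols among the 47432 genes counted in RNA-seq tables of LOX-IMVI, a long established line of human melanoma cells, and all 10 passed the filter on low counts. The cells carried either a control short hairpin construct (shCtrl) or a construct directed at NFKBIZ (shNFKBIZ), with 3 libraries per group. Both groups were made by lentiviral transduction of the pLKO.1 vector followed by puromycin selection, and NFKBIZ was targeted with a single hairpin, so effects of the lost gene and of the hairpin itself cannot be told apart. NFKBIZ encodes IκBζ, a nuclear co-regulator of NF-κB and STAT3 target genes. The study asked how IκBζ represses chemokine genes in melanoma, and EZH2 was among the co-repressors it tested. It reported an interaction of IκBζ with EZH2. In LOX-IMVI with NFKBIZ knocked down, it found less of the EZH2-dependent histone mark at chemokine promoters. This raises the question whether transcripts of EZH2 and of the rest of its complex change when NFKBIZ is lowered. Transcript levels measure neither EZH2 protein nor its recruitment or activity at those promoters.

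PRC2 places methyl groups on lysine 27 of histone H3 (H3K27), the mark of genes held silent by the Polycomb system. EZH2 or EZH1 carries the catalytic site, EED and SUZ12 are needed for activity, and the histone chaperones RBBP4 and RBBP7 bind nucleosomes in this and several other complexes. Accessory subunits define 2 alternative forms, PRC2.1 with a Polycomb-like protein such as MTF2 or PHF19, and PRC2.2 with JARID2 and AEBP2. EZH2 is abundant in dividing cells and is often raised or mutated in melanoma, whereas EZH1 prevails in resting cells.

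The libraries held 22264473 to 24624839 exon reads each, and 1812526 to 1975528 intron reads. Replicates of a group correlated at 0.997 to 0.998 in log2 CPM (counts scaled to library size) over 9633 genes, and libraries of different groups at 0.947 to 0.953. NFKBIZ stood at 41.4, 42.9 and 49.2 TPM (a level scaled to exon length and library size) in shCtrl and at 13.7, 14.1 and 13.3 TPM in shNFKBIZ. On the log2 scale this was a fold change of -1.78 (SE 0.0581), with an adjusted p of 7.20e-17 in the quasi-likelihood test of edgeR, which gave every adjusted p below unless another test is named. Of 8 melanocyte lineage genes, SOX10, MLANA and S100B had no read in any library, and the 8 together reached 1.79 to 4.23 TPM. Of 5 markers of dedifferentiated melanoma, which summed to 579 to 622 TPM in shCtrl and 697 to 710 TPM in shNFKBIZ, the receptor kinase AXL stood at 384 to 490 TPM and NGFR at no more than 0.113 TPM. SOX9 (1.27), EGFR (0.66) and AXL (0.17) were called higher and TEAD1 (-0.49) lower, and their part in the results below was not tested. Among 6 markers of other cell types, CD3E had no read, PTPRC, PECAM1 and EPCAM stayed below 0.33 TPM and KRT14 below 1.86 TPM, while the macrophage marker CD68 rose from 98.5 ± 1.68 to 198 ± 0.695 TPM (mean ± SD, n = 3 per group). It held nearly the whole of this list's sum, which was 97.4 to 101 TPM in shCtrl and 200 to 201 TPM in shNFKBIZ. The part of CD68 in any result below was not tested.

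Transcripts of 7 of the 10 subunits were higher in shNFKBIZ, those of AEBP2 were slightly lower (a call that was lost with library size alone), and SUZ12 and RBBP7 did not pass the test (adjusted p of at most 0.05). The groups differed in much of the transcriptome, as 65.3% of the 13843 genes tested were called, 32.5% higher and 32.8% lower. TMM-scaled CPM did not overlap between the groups for 7 subunits, 6 of them higher and AEBP2 lower, as was the case for 34.1% (higher) and 34.6% (lower) of all genes. The rises were largest for JARID2, EZH2, PHF19 and EED, at log2 fold changes of 0.37 to 0.74, and smaller for EZH1, RBBP4 and MTF2, at 0.13 to 0.17. The median over the 10 subunits was 0.16, beside 0.00431 over all genes tested. No subunit changed by as much as 2-fold, a limit that 8.96% of all genes passed, and JARID2 alone exceeded 1.5-fold, as 10.2% of all genes did in the upward direction. With library size alone in place of TMM factors, the median of all genes lay at 0.0937 and the subunits had 9 calls, all of them higher, while over all genes 5659 were called higher and 3651 lower, against 4496 and 4543 with TMM. Fold changes below are on the TMM scale, and a TPM ratio therefore reads slightly higher than the fold change of the same gene.

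**Figure D1:**
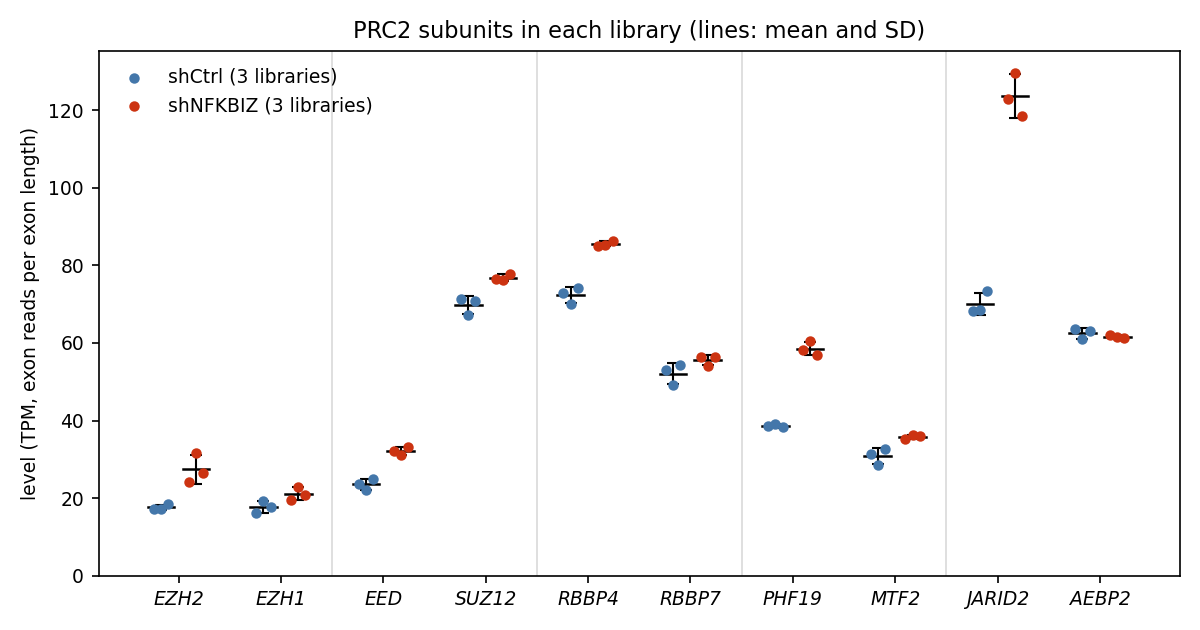
Level of each PRC2 subunit (TPM, exon reads scaled by exon length) in the 3 shCtrl libraries (blue) and the 3 shNFKBIZ libraries (red), with the mean and SD of each group in black. JARID2 shows the widest gap, from 68.2 to 73.3 TPM in shCtrl to 118 to 130 TPM in shNFKBIZ, and the values of AEBP2 overlap on this scale.

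The catalytic subunits were the least abundant members in shCtrl cells. EZH2, the methyltransferase of dividing cells, was at 17.1, 17.3 and 18.4 TPM in shCtrl (1144, 1199 and 1145 exon reads) and at 24.2, 31.5 and 26.4 TPM in shNFKBIZ (1524, 1954 and 1695 reads). Every shNFKBIZ library lay above every shCtrl library, and replicate 2 of shNFKBIZ was the highest. The log2 fold change was 0.55 (SE 0.0784, 95% interval 0.38 to 0.73, adjusted p = 1.51e-04), or 1.47-fold, and 12% of all tested genes had a higher value. Without replicate 2 of shNFKBIZ the change was 0.46, and it ranged from 0.46 to 0.66 over the alternative settings.

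EZH1, the paralog with weaker methyltransferase activity, was at 16.3, 19.3 and 17.7 TPM in shCtrl and at 19.6, 22.97 and 20.9 TPM in shNFKBIZ. The groups were close, with the lowest shNFKBIZ library just above the highest shCtrl library in TPM and below it in TMM-scaled CPM (34.9 against 36.6). The change of 0.17 (SE 0.0651, adjusted p = 0.0313) was called in 10 of 16 alternative settings, and it was not called when replicate 1 or 3 of shCtrl or replicate 2 or 3 of shNFKBIZ was left out (adjusted p = 0.189, 0.118, 0.140 and 0.0665). The ratio of EZH2 to EZH1 TPM went from 0.996 ± 0.0865 to 1.29 ± 0.0725 (n = 3 per group). EZH2 thus made up 49.8% ± 2.23 of the summed EZH1 and EZH2 level in shCtrl and 56.3% ± 1.36 in shNFKBIZ. The exon length counted for EZH2, 10774 bases from 65 exons, joins the exons of its 20 annotated transcripts and is the longest of the 10, which lowers its TPM relative to the other subunits and leaves the change between groups as it is.

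Of the core subunits, EED rose and SUZ12 did not pass the test. EED, whose cage of repeats reads the methylated H3K27 mark, was at 23.5, 22.1 and 24.96 TPM in shCtrl and at 32.2, 31.0 and 33.3 TPM in shNFKBIZ. The groups were well apart, by 0.37 on the log2 scale (SE 0.0510, adjusted p = 1.42e-06), and all 16 alternative settings gave the same call. SUZ12, the scaffold on which the complex assembles, was at 71.4, 67.2 and 70.7 TPM in shCtrl and at 76.5, 76.3 and 77.8 TPM in shNFKBIZ. These TPM values did not overlap, but the TMM-scaled values did (119 to 126 CPM against 124 to 130 CPM), and the change was 0.06 with an interval of -0.02 to 0.14 (adjusted p = 0.186). SUZ12 was called higher in 3 of 16 settings, namely with library size alone (0.15), after a GC and length trend was removed (0.16) and in exon-exon reads (0.16). It was also the only member with reads that matched several places, since 96.3% to 97.0% of its exon reads were unique and the other 9 subunits had 100% unique reads.

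The chaperone pair differed in the same way. RBBP4 was at 72.9, 70.1 and 74.1 TPM in shCtrl and at 85.1, 85.4 and 86.2 TPM in shNFKBIZ, a small but tight rise of 0.16 (SE 0.0346, adjusted p = 3.43e-04) that was called in all 16 settings. RBBP7 was at 53.0, 49.1 and 54.2 TPM in shCtrl and at 56.3, 54.0 and 56.3 TPM in shNFKBIZ, with overlapping groups. Its change of 0.01 had an interval of -0.08 to 0.10 (adjusted p = 0.827) and was called higher in 2 settings, library size alone (0.10) and removal of the GC and length trend (0.09). Both genes overlap a gene on the opposite strand (SYNC for RBBP4, TXLNG for RBBP7), and because strand was not used in counting, reads of the overlapping part cannot be told apart.

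The PRC2.1 subunits both rose, PHF19 more than MTF2 in size. PHF19, a Polycomb-like protein that binds CpG-rich DNA and methylated H3K36, was at 38.5, 39.1 and 38.3 TPM in shCtrl and at 58.2, 60.4 and 57.0 TPM in shNFKBIZ. It had the tightest shCtrl values of the 10, and its change of 0.52 (SE 0.0403, adjusted p = 2.23e-10) was called in all 16 settings. MTF2, a Polycomb-like protein with the same kind of domains, was at 31.5, 28.5 and 32.6 TPM in shCtrl and at 35.2, 36.3 and 35.9 TPM in shNFKBIZ. The groups did not overlap, yet the change was only 0.13 (SE 0.0490, adjusted p = 0.0200), was called in 11 of 16 settings, and lost its call without replicate 2 of shCtrl (0.09, adjusted p = 0.130) or without replicate 3 of shNFKBIZ (0.13, adjusted p = 0.0648). The ratio of PHF19 to MTF2 was 1.26 ± 0.102 in shCtrl and 1.64 ± 0.0417 in shNFKBIZ.

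The PRC2.2 subunits moved in opposite directions. JARID2, which recruits PRC2 to chromatin and stimulates it, was at 68.2, 68.5 and 73.3 TPM in shCtrl (2648, 2748 and 2641 exon reads) and at 123, 130 and 118 TPM in shNFKBIZ (4495, 4656 and 4398 reads). This was the largest change among the 10, 0.74 (SE 0.0372, 95% interval 0.66 to 0.82, adjusted p = 1.32e-13) or 1.67-fold, and 7.498% of all tested genes rose further. AEBP2, a zinc finger protein that joins JARID2 in the same form of the complex, was at 63.6, 60.9 and 63.1 TPM in shCtrl and at 62.0, 61.6 and 61.3 TPM in shNFKBIZ. The groups overlapped in TPM and were separate in TMM-scaled values (112 to 116 CPM against 103 to 107 CPM), with a change of -0.10 (SE 0.0376, adjusted p = 0.0213). The call was lost with library size alone (-0.01), after removal of the GC and length trend (-0.01), and without replicate 1 of shCtrl or replicate 2 of shNFKBIZ (-0.09 in both, adjusted p = 0.0906 and 0.0571), and exon-exon reads gave 0.02. The ratio of JARID2 to AEBP2 went from 1.12 ± 0.0452 to 2.01 ± 0.0886.

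The order of the TPM levels shifted accordingly, with the place of EZH2 dependent on its long counted exon length. In shCtrl, RBBP4, JARID2 and SUZ12 led with overlapping values (means 72.4, 70.0 and 69.8 TPM), followed by AEBP2, RBBP7, PHF19, MTF2 and EED, each separate from the next, and EZH1 and EZH2 overlapped at the bottom. In shNFKBIZ, JARID2 was alone at the top (124 TPM), RBBP4 and SUZ12 followed, PHF19 had passed RBBP7 (58.5 against 55.5 TPM), and EZH2 (27.4 TPM) overlapped EED (32.2 TPM) and was separate from EZH1 (21.1 TPM). The summed level of the PRC2.1 subunits MTF2 and PHF19 went from 69.4 ± 1.71 to 94.3 ± 2.09 TPM, and that of the PRC2.2 subunits JARID2 and AEBP2 from 133 ± 3.57 to 185 ± 5.79 TPM. The ratio of the second sum to the first was 1.91 ± 0.0222 in shCtrl and 1.96 ± 0.0246 in shNFKBIZ, a small difference with no overlap between the libraries (1.88 to 1.93 against 1.94 to 1.98). This ratio depended on which subunits were summed. With PHF1 and EPOP, further subunits of PRC2.1, the PRC2.1 sum was 119 ± 2.38 TPM in shCtrl and 130.4 ± 3.97 TPM in shNFKBIZ, and the ratio was 1.12 ± 0.0124 and 1.42 ± 0.0233.

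EZH2 was next set against each other subunit within the same library, which removes the choice of scaling. Its log2 ratio was higher in all shNFKBIZ libraries than in all shCtrl libraries for 6 of 9 partners. Only 12% of all tested genes had a higher fold change than EZH2, so a rise against most partners is not particular to PRC2. The share of all genes with such a separated ratio was not computed. The shift was 0.65 (SE 0.120) against AEBP2, 0.54 (SE 0.137) against RBBP7, 0.49 (SE 0.122) against SUZ12, 0.41 (SE 0.111) against MTF2, 0.39 (SE 0.116) against RBBP4 and 0.38 (SE 0.0875) against EZH1. Against EED (0.18, SE 0.138) and PHF19 (0.03, SE 0.104) the groups overlapped, and against JARID2 the ratio was lower in shNFKBIZ, by -0.19 (SE 0.0896). With 3 libraries per group the smallest p that the exact two-sided permutation test can give is 0.1, so no ratio could pass the threshold (p = 0.1 for the 7 separated ratios, 0.2 for EED and 0.8 for PHF19, adjusted over 9 ratios 0.129, 0.225 and 0.8).

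**Figure D2:**
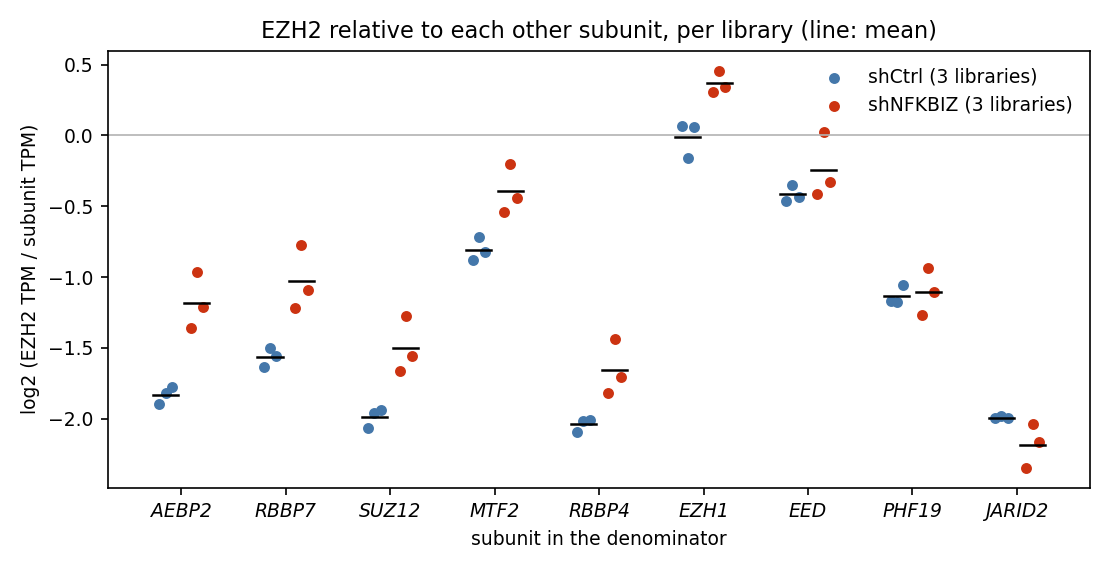
Log2 ratio of EZH2 TPM to the TPM of each other subunit, 1 point per library (shCtrl blue, shNFKBIZ red), with the group mean as a black line. The ratio is higher in shNFKBIZ for the 6 subunits at the left, overlaps between groups for EED and PHF19, and is lower for JARID2.

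Intron reads, which come largely from unspliced transcripts, gave a second readout of the same genes. Of the 7 subunits that rose in exon reads, EZH2, EED, RBBP4 and PHF19 were called higher in intron reads as well, and EZH1, JARID2 and MTF2 were not called. AEBP2 was called lower in both readouts, and SUZ12 and RBBP7 were called in neither. Among the 12119 genes tested in intron reads, 38.8% were called, 19.3% higher and 19.5% lower. The groups did not overlap for 5 subunits in the upward and 2 in the downward direction, beside 24.5% and 23.8% of all genes. In intron reads PHF19 alone exceeded 1.5-fold upward, as 8.38% of all genes did, and none of the 10 changed by 2-fold, as 6.6% of all genes did. EZH2 had 148, 154 and 149 intron reads in shCtrl and 215, 242 and 189 in shNFKBIZ, a change of 0.43 (SE 0.0989, adjusted p = 6.79e-04). EED had 107, 110 and 121 reads against 178, 179 and 171 (0.55, SE 0.108, adjusted p = 7.91e-05). The intron groups of both genes were separate, and these calls held in all 12 alternative settings of the intron fit.

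PHF19 had 113, 113 and 98 intron reads in shCtrl and 146, 191 and 194 in shNFKBIZ (0.62, SE 0.114, adjusted p = 3.45e-05). RBBP4 had 104, 116 and 126 against 171, 188 and 159 (0.49, SE 0.110, adjusted p = 4.53e-04), a larger rise than in its exon reads. AEBP2 had 361, 333 and 368 against 245, 283 and 293 (-0.46, SE 0.0819, adjusted p = 1.96e-05), a larger fall than in its exon reads. All of these groups were separate, and the calls held in the same 12 settings.

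JARID2 was the exception among the subunits with the largest exon changes. It had 683, 636 and 637 intron reads in shCtrl and 734, 786 and 766 in shNFKBIZ, which do not overlap, and the change of 0.13 (SE 0.0612, adjusted p = 0.0807) was not called. It was called with library size alone (0.19), with the exon scaling (0.21) and without replicate 1 of shCtrl (0.17, adjusted p = 0.0486). Intron reads made up 19.6% ± 0.864 of the JARID2 gene reads in shCtrl and 14.4% ± 0.398 in shNFKBIZ. An antisense transcript, JARID2-AS1, overlaps the gene, and its reads cannot be told apart from JARID2 reads without strand.

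The other subunits had intron changes whose intervals included 0. These were SUZ12 at -0.12 (-0.30 to 0.06), EZH1 at -0.16 (-0.47 to 0.15), MTF2 at -0.03 (-0.22 to 0.16) and RBBP7 at 0.28 (-0.22 to 0.77). EZH1 had 52 to 71 intron reads per library and RBBP7 16 to 33. The intron SE was 0.155 for EZH1, 0.247 for RBBP7, 0.093 for MTF2 and 0.089 for SUZ12. Changes as small as their exon changes (0.17, 0.01, 0.13 and 0.06 in the same order) were therefore not detectable in intron reads.

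The difference between the exon and the intron change was then tested in one model, in which 28.9% of 11025 genes were called. The exon change lay above the intron change in 13.1% and below it in 15.7%. The exon change lay above the intron change by 0.62 for JARID2 (SE 0.0688, adjusted p = 1.11e-12) and by 0.37 for AEBP2 (SE 0.0818, adjusted p = 1.58e-04). Both calls held in each of 8 alternative settings. For AEBP2 this was a smaller fall in exon reads (-0.10) than in intron reads (-0.46). RBBP4 had a smaller exon change, by -0.32 (SE 0.106, adjusted p = 0.0164). This last call was lost without replicate 1 or 2 of shCtrl and without replicate 1 or 2 of shNFKBIZ (-0.24, -0.31, -0.31 and -0.27, adjusted p = 0.146, 0.0631, 0.0506 and 0.109). For EZH2 the difference was 0.14, with an interval of -0.07 to 0.35 (adjusted p = 0.338). The differences for EED (-0.17), PHF19 (-0.09), RBBP7 (-0.25), MTF2 (0.18), SUZ12 (0.20) and EZH1 (0.34) did not pass the threshold, and that of SUZ12 passed it in unique reads (0.32, adjusted p = 0.0138).

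**Figure D3:**
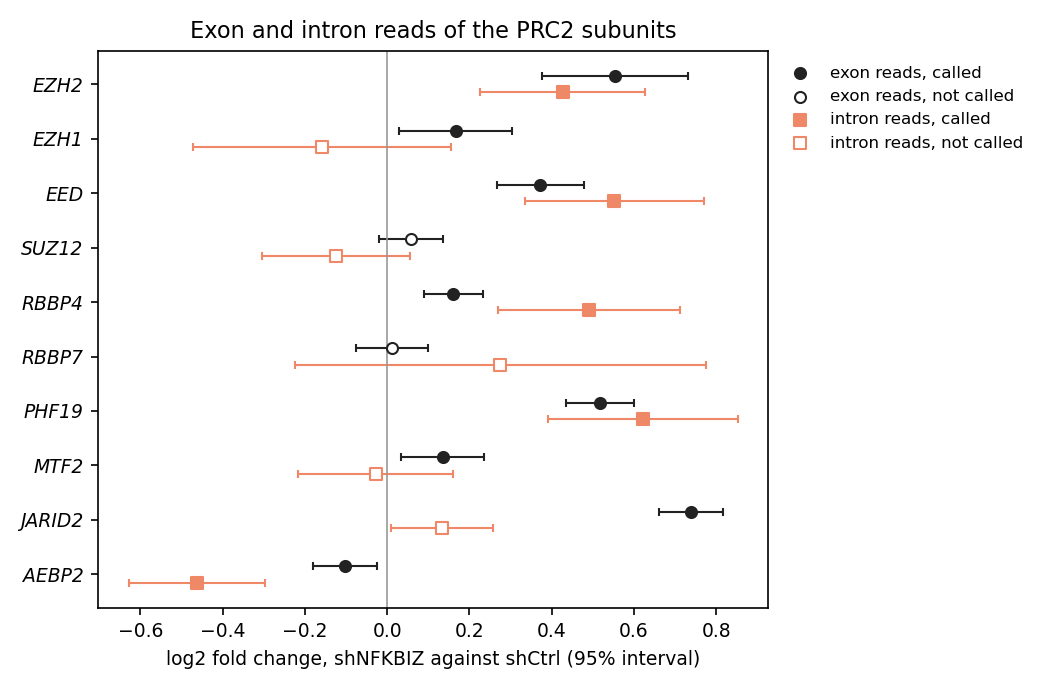
Log2 fold change of each PRC2 subunit in exon reads (black circles) and intron reads (orange squares) with 95% intervals, where filled symbols passed the test. The intervals of JARID2 do not meet, at 0.66 to 0.82 for exon reads and 0.01 to 0.26 for intron reads, and both readouts of EZH2, EED, RBBP4 and PHF19 lie above 0.

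EZH2 and EED are known targets of E2F factors, which drive genes of DNA replication, so the sequence around the starts of all subunits was searched for E2F motifs. RefSeq windows of GRCh38.p14 from 250 bases before to 50 bases after an annotated start were found for all 10 subunits, 15 windows in all. An E2F motif (TTTCCCGC, TTTCGCGC, TTTGCCGC or TTTGGCGC on either strand) occurred in a window of 6 of the 10 genes, while 3.31% of 35116 windows and 3.99% of 27305 genes held it. Each match is shown with 11 bases on both sides, 5′ to 3′ on the strand of the gene and with the matched form of the motif in capitals, to show which form each gene has:
EZH2: gggctgccgcgTTTGGCGCtcggtccggtc
EZH1: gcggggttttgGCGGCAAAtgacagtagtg
PHF19: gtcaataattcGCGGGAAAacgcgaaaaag
MTF2: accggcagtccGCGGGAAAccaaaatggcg
SUZ12: cgacccctaatTTTCCCGCgaattcagttc
AEBP2: caaggcgacgtTTTGCCGCgatccccctgc
The EZH2 stretch lies at chr7:148884272-148884301 on the minus strand, with the motif 1 to 8 bases downstream of the start, and that of MTF2 at chr1:93079277-93079306 on the plus strand, 5 to 12 bases downstream. The others lie upstream, at chr17:42745137-42745166 (minus) for EZH1, chr9:120877322-120877351 (minus) for PHF19, chr17:31936807-31936836 (plus) for SUZ12 and chr12:19440438-19440467 (plus) for AEBP2. The 6 genes with a match include 4 that were called higher, the uncalled SUZ12 and AEBP2, which was called lower. JARID2, EED and RBBP4 were called higher without this motif in their windows. The CHR motif (TTTGAA or TTCGAA) occurred in SUZ12 alone and in 16.4% of all windows, and neither a STAT motif (TTCCNGGAA, 1.15% of windows) nor a κB motif (5.91% of windows) occurred in any window of the 10. The members' windows had a GC content of 52.3% to 79.7%, beside a median of 58.7% over all windows.

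Related gene lists were then read beside the 10 subunits. Of 30 E2F target and cell cycle genes, all of them tested, 18 were called higher (60.0%), 7 lower (23.3%) and 5 were not called. Their median was 0.16, and 32.5% of all tested genes were called higher and 32.8% lower. Called higher were MCM4 (0.74), a subunit of the replicative helicase, and CCNE1 (0.71), the cyclin of S phase entry. Of the 6 helicase subunits MCM2 to MCM7, 5 were called higher and MCM6 lower. Called lower were MYBL2 (-0.68), a regulator of G2 and M phase genes, E2F1 (-0.55), the best known activating E2F, and PLK1 (-0.32), a mitotic kinase. E2F1 was at 57.9, 62.2 and 55.6 TPM in shCtrl and at 40.8, 44.9 and 41.2 TPM in shNFKBIZ, while E2F2 rose from 5.12, 5.01 and 5.37 TPM to 8.00, 8.37 and 7.29 TPM (0.53). Among the 113 tested genes of all 7 lists, those whose centred log2 CPM over the 6 libraries lay nearest to EZH2 were MCM3, E2F2 and CHAF1A (root mean square distance 0.0931, 0.1005 and 0.104). Distances to genes outside the lists were not computed, so whether listed genes lay nearer to EZH2 than other genes was not tested. Among the other subunits PHF19 (0.105), JARID2 (0.131) and EED (0.164) were nearest and AEBP2 (0.346) was farthest.

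Among 5 further genes of PRC2, 4 of them tested, 3 were called lower, beside 32.8% of all tested genes. PHF1, the third Polycomb-like protein, was at 29.0, 31.0 and 30.1 TPM in shCtrl and at 23.4, 26.4 and 22.2 TPM in shNFKBIZ (-0.41, SE 0.0630, adjusted p = 6.96e-06). EPOP, a further subunit of PRC2.1, was at 18.3, 18.9 and 20.6 TPM against 11.1, 11.9 and 13.3 TPM (-0.75, SE 0.0837, adjusted p = 6.47e-08). All shNFKBIZ libraries lay below all shCtrl libraries for both genes, as was the case for 34.6% of all genes in TMM-scaled CPM. LCORL was also called lower (-0.22), LCOR was not (-0.10, adjusted p = 0.0585), and EZHIP, an inhibitor of EZH2, had no read in any library, which allows up to 3 reads per library. The median of the 4 tested genes was -0.31, and exon-exon reads gave 1 call among them. EPOP, with 1 annotated exon, can give no exon-exon reads and could not be called there.

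Of 24 genes of PRC1, the partner complex that ubiquitinates histone H2A, 9 were called higher (37.5%), 7 lower (29.2%) and 8 were not called, with a median of 0.02. These shares were close to the 32.5% and 32.8% of all tested genes. The paralogous ubiquitin ligases RING1 and RNF2 moved apart, RING1 from 91.6, 90.4 and 97.0 to 157, 165 and 153 TPM (0.69) and RNF2 from 45.2, 41.8 and 49.0 to 31.4, 30.5 and 30.5 TPM (-0.64). L3MBTL2 (0.80) and SCML2 (0.75), which bind histones or chromatin, were also called higher. BCORL1 (-1.28) and BCOR (-0.59), the scaffolds of a PRC1 variant, were called lower, BCORL1 by more than 2-fold.

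Enzymes that act against PRC2 changed as well. KDM6A and KDM6B, which remove methyl groups from H3K27, moved in opposite directions, KDM6A from 3.64, 3.79 and 3.85 to 5.18, 5.03 and 5.32 TPM (0.38, adjusted p = 2.60e-06) and KDM6B from 16.8, 17.5 and 17.5 to 12.2, 14.6 and 12.96 TPM (-0.46, adjusted p = 6.37e-07). Neither gene showed overlap between the groups, as was the case for 34.1% (higher) and 34.6% (lower) of all genes in TMM-scaled CPM. With the PR-DUB complex, which removes the H2A mark of PRC1, 9 genes of a list of 10 were tested. Of these, 2 were called higher (22.2%), KDM6A and the deubiquitinase BAP1 (0.38). Another 6 were called lower (66.7%), among them MBD5 (-0.46) and ASXL1 (-0.26). The median was -0.23, and 32.5% of all tested genes were called higher and 32.8% lower. Of 5 methyltransferases of H3K36, a mark that hinders PRC2, NSD2 (0.22) and ASH1L (0.17) were called higher (40.0%). NSD1 (-0.23) and NSD3 (-0.17) were called lower (40.0%), and the median was 0.02.

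RBBP4 and RBBP7 also serve other complexes. Of 13 genes of these complexes, 4 were called higher (30.8%), 6 lower (46.2%) and 3 were not called, with a median of -0.08, beside 32.5% and 32.8% of all tested genes. CHAF1A (0.41) and CHAF1B (0.17) of the chromatin assembly factor and MBD3 (0.22) were called higher. The NuRD subunits MTA2 (-0.77), MTA3 (-0.44) and GATAD2B (-0.43) were called lower, and MTA2 went from 163, 168 and 168 TPM to 100.3, 107 and 102 TPM.

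**Figure D4:**
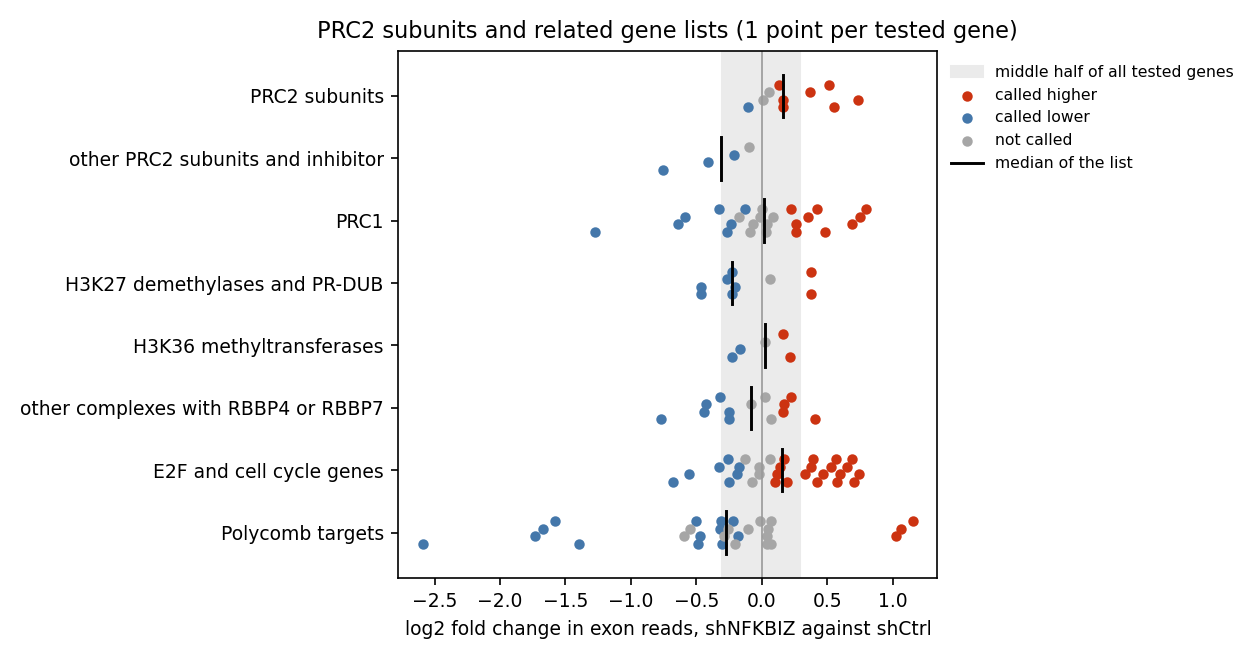
Log2 fold change in exon reads, 1 point per tested gene, for the PRC2 subunits and the 7 related lists (red called higher, blue called lower, grey not called), with the list median in black and the middle range of all tested genes shaded. The medians of the PRC2 subunits and of the E2F and cell cycle genes are both 0.16, and that of the Polycomb targets is -0.27.

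A list of genes known to be silenced by Polycomb in many tissues was mostly lower or uncalled. Its 43 genes comprised the 39 HOX genes and CDKN1C, CDKN2A, CDKN2B and DAB2IP, and 28 passed the filter. Of these, 13 were called lower (46.4%), 3 higher (10.7%) and 12 were not called, with a median of -0.27. Over all tested genes, 32.8% were called lower and 32.5% higher. Whether Polycomb acts on the 28 tested genes in these cells was not tested. CDKN2B, an inhibitor of CDK4 and CDK6, was at 24.2, 23.3 and 20.2 TPM in shCtrl and at 3.67, 4.39 and 3.87 TPM in shNFKBIZ (-2.59, SE 0.10005, adjusted p = 1.50e-15). The neighbouring CDKN2A had no read in any library, which allows up to 3 reads per library. The 3 genes called higher were HOXA10 (1.16), HOXA11 (1.07) and DAB2IP (1.03), a RAS regulator.

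HOX genes specify position along the body axis and lie in 4 clusters. In HOXA, 4 of 6 tested genes were called lower and 2 higher, with HOXA6 at 5.76, 6.90 and 5.80 against 2.26, 2.03 and 1.83 TPM (-1.67) and HOXA10 at 11.6, 12.97 and 12.4 against 28.8, 29.3 and 29.2 TPM. The genes called higher, HOXA10 and HOXA11, are neighbours. In the other clusters the calls were all lower, in 5 of 8 tested genes of HOXB, 2 of 6 of HOXC and 1 of 6 of HOXD, with HOXC10 (-1.74) at 4.02 to 5.43 against 1.32 to 1.80 TPM. For comparison, 32.8% of all tested genes were called lower and 32.5% higher. In exon-exon reads only 11 of the 43 genes passed the filter, and the 2 calls among them were higher.

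Across the settings, EZH2, EED, RBBP4, PHF19 and JARID2 were called higher in exon reads in each of 16 settings. EZH1, MTF2 and SUZ12 were above 0 in each as well, with lowest values of 0.11, 0.09 and 0.04, but were not called in all of them. The plot of settings shows that library size alone and the removal of the GC and length trend moved several subunits upward together, and that exon-exon reads gave larger rises for EZH1, at 0.36, and for RBBP4, at 0.30.

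**Figure D5:**
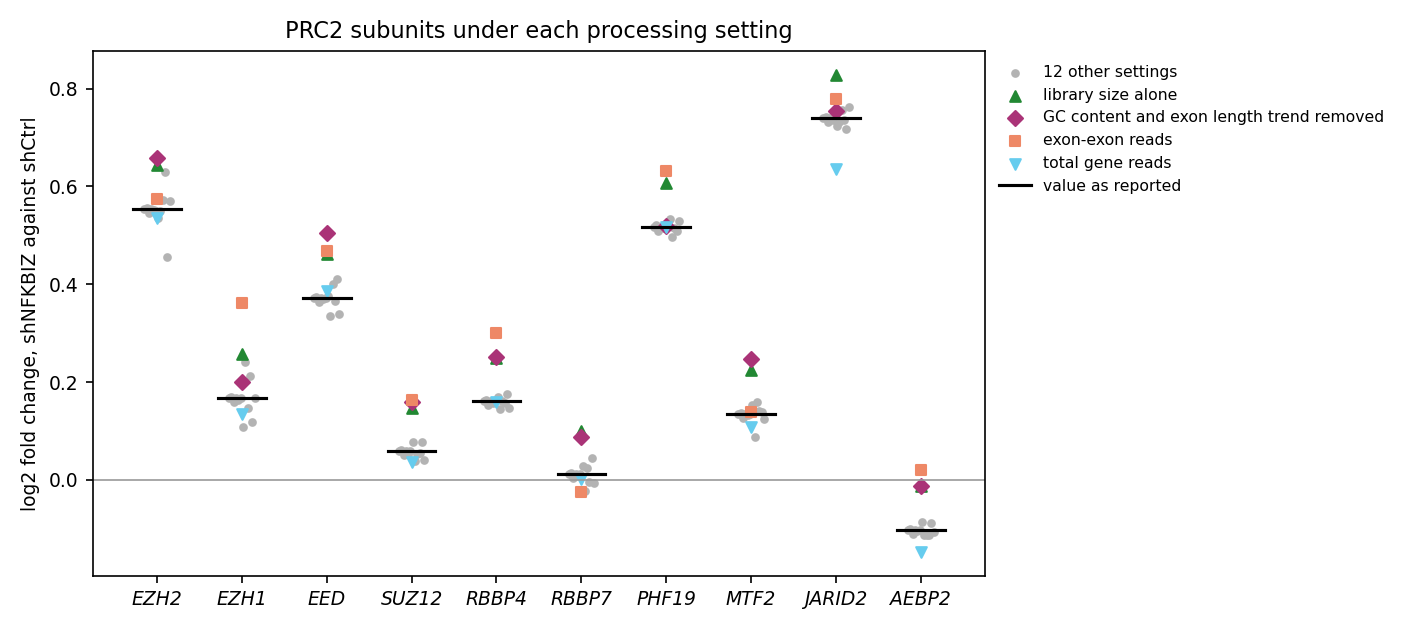
Log2 fold change in exon reads of each PRC2 subunit as reported (black line) and under 16 other settings (grey points for 12, coloured symbols for 4 settings of scaling or read type). EZH2, EED, RBBP4, PHF19 and JARID2 stay above 0 throughout, as do EZH1, MTF2 and SUZ12. RBBP7 lies on both sides of 0, and AEBP2 is above 0 in exon-exon reads only.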

How the data were processed

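The authors mapped paired reads to hg38 in CLC Genomics Workbench (default parameters). They deposited counts per gene as whole numbers, divided into total and unique exon and intron reads and exon-exon reads. Pairs were counted once and strand was not used. TPM was computed again from the exon counts and exon lengths, and matched the deposited TPM values. Groups and replicate numbers came from the titles. The study describes the 3 libraries per group as independent experiments, and the labels do not say which cultures they came from.

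Exon counts were filtered with filterByExpr, scaled by TMM and tested by quasi-likelihood in edgeR 4.0.16 in R 4.3.3 (robust, two-sided, Benjamini-Hochberg over 13843 genes, no replicate block and no fold limit). Intron reads were fitted likewise, and exon minus intron changes in one model with library blocks. The fits were tested on simulated data. EZH2 ratios used exact permutation tests in scipy 1.17.1. Alternatives were other scalings and filters, DESeq2 1.42.0, other read types, a block, a GC and length trend, fold limits, and each library left out. Exon-exon reads, and the PRC2.1 sum with PHF1 and EPOP, were added after seeing the data. Named genes were the subunits, NFKBIZ, KDM6A, KDM6B, PHF1, E2F1, CDKN2A, up to 3 genes per list and direction by size of change, and the 3 listed genes nearest to EZH2, except that 1 gene is not reported here. Cell type markers, LCOR and MCM6 were named after their values were seen. Members and lists were chosen with earlier results of these data known. The same-numbered libraries deviated together with correlations of 0.0309, 0.206 and 0.0942, which neither shows nor excludes pairing. The tables list no row for processed copies of the subunits.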

Additional observations from a re-analysis of the deposited data

How the results depend on the processing

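The 10 subunits and 7 lists were recomputed under 18 alternatives for exon reads, 13 for intron reads and 8 for their difference, and 605 of 691 values were judged the same. A fold change was the same if it kept its direction and its side of the threshold. A count was the same within 1.5-fold, and a ratio of EZH2 to another subunit if it kept its direction. A fold limit had the largest effect. At 2-fold, no subunit was called in exon or intron reads (0 of 10), EZH2 keeping 0.55, and the lists had 0 calls apart from 1 in PRC1 and 8 in Polycomb targets. At 1.5-fold, 1 subunit was called, with EZH2 again at 0.55 and below the limit, and the lists had 6 (PRC1), 6 (E2F and cell cycle), 8 (Polycomb targets), 1 (other PRC2 subunits), 1 (other complexes with RBBP4 or RBBP7), 0 (H3K27 demethylases and PR-DUB) and 0 (H3K36). Exon-exon reads, with fewer genes tested, gave 1 call among the other PRC2 subunits and 2 among Polycomb targets, and turned RBBP7 to -0.026, AEBP2 to 0.019 and EZH2 relative to PHF19 to -0.061. EPOP, with 1 annotated exon, can give no exon-exon reads, and the cause of the other shifts was not tested.

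Leaving out 1 library gave 6 to 8 subunits called in exon reads (5 to 7 higher), 5 or 6 in intron reads and 2 or 3 in the difference. EZH2 ranged from 0.46 to 0.63, RBBP7 from -0.023 to 0.044, MTF2 intron reads from -0.12 to 0.024, the PHF19 difference from -0.20 to 4.54e-04, and EZH2 relative to PHF19 from -0.055 to 0.11. The other PRC2 subunits had 2 to 4 calls. MTF2 intron reads also turned to 0.029 with library size alone and 0.048 with exon scaling. In intron reads the ratio of EZH2 turned to -0.13 against EED, -0.072 against RBBP4, 0.29 against JARID2 and -0.19 against PHF19.

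With a replicate block, 9303 genes were called in place of 9039, and the subunits had 7 calls higher and 1 lower, as without it. The numbers neither showed nor excluded a pairing of the libraries, and 2 of 3 shCtrl libraries correlated best with their own number. Intron depth limits RBBP7 and EZH1 most, and the 3 libraries per group limit every ratio.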

Other observations

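Other genes of the E2F and cell cycle list were called in both directions. PCNA, the replication clamp, and CDT1, a licensing factor, were at 0.57 each, E2F7, a repressive E2F, at 0.66 and TYMS, an enzyme of nucleotide synthesis, at 0.40, all called higher, whereas CCNB1, the cyclin of mitotic entry, was at -0.26 and CCNA2, the cyclin of S and G2 phase, at -0.17, both called lower. CDK1 (0.19) and TOP2A (0.10) were called higher, and RRM1 (0.06), TK1 (-0.02), BUB1 (-0.02) and MKI67 (-0.07) were not called. These genes were chosen after their values were seen. Among PRC1 genes, the chromobox readers CBX2 (0.49) and CBX8 (0.43) were called higher, and CBX7, at 1.16 to 1.67 TPM in the 6 libraries, was not called (-0.17).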
